A study of Mus musculus with 10 samples.

Results

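Liver messenger RNA is described here from the 2 liver arrays of a study of 5 mouse tissues, out of 10 arrays in all. The study hybridised total RNA from liver, pancreas, muscle, white adipose tissue and hypothalamus of adult female C57BL/6 mice to the Affymetrix chips A and B, with 1 array for each tissue on each chip. The labels state no genetic change and no treatment for any tissue, and do not say how many mice gave each RNA or whether both chips received the same RNA. The titles of the adipose arrays name a preconfluent state while their source label names white adipose tissue, so these are called adipose-labelled. The liver array of each chip was set against the other 4 arrays of the same chip. Probe sets, the groups of short probes that read 1 message, were ranked within liver by deposited intensity, with 6523 of them on chip A and 6534 on chip B after controls were left out.

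With 1 array per tissue and chip, nothing below was tested and no value has a spread between animals, and precision is limited by the small number of arrays. In tissue RNA, fewer cells of a type and less RNA per cell cannot be told apart. Intensity depends on each probe set's own binding, so a rank orders signals and not amounts of RNA. The noise bound of an array is the size of its 1st percentile. The liver bounds were 296.0 (chip A) and 794.0 (chip B), while the bounds of the other arrays ran from 260 in hypothalamus to 1165 in pancreas on chip A and from 654 to 2603 in the same tissues on chip B. In liver 35.0% of the probe sets of chip A and 16.4% of those of chip B lay above the bound. Probe sets above the bound in all 5 tissues lay in liver at -0.44 (chip A, 517 probe sets) and -0.37 (chip B, 248) on the log2 scale relative to the mean of the other 4. With each array scaled to its 75th percentile these values became -0.08 and 0.08, and with quantile normalization -0.44 and -0.46, so a small difference below or above 0 depends on the scaling.

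Hepatocytes make most of the proteins of blood plasma, turn ammonia into urea, oxidise and export lipids, make glucose and bile acids, and clear drugs and steroids through cytochrome P450 enzymes and conjugating enzymes. Their work is divided along the lobule between periportal cells, near the incoming blood, and pericentral cells, near the outgoing vein. Kupffer cells, which are the resident macrophages, sinusoidal endothelium, stellate cells and bile duct cells make up the rest of the organ.

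The liver signal was spread over many bright probe sets, and no single probe set held a dominant share. These are shares of intensity, so they do not show how the RNA itself was divided between messages. The brightest probe set held 0.445% of the positive signal on chip A, where it reads Rpl41, a ribosomal protein, at 21282. The top 10 held 4.03%, the top 50 16.8%, the top 100 28.3% and the top 500 64.7%. On chip B the brightest held 0.679%, the top 10 5.76%, the top 100 37.1% and the top 500 74.7%. The liver was less concentrated at the very top than pancreas and muscle, whose top 10 held 7.74% and 11.9% on chip A and 15.9% each on chip B. Hypothalamus was the most evenly spread, with 2.86% and 3.49% in its top 10. Further down the order changed, and the top 500 probe sets of liver held the largest share of the 5 tissues on chip A, and the share next to that of muscle (75.4%) on chip B. The brightest 266 probe sets of chip A and 173 of chip B held 50% of the liver signal, against 227 to 410 and 99 to 279 in the other tissues.

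**Figure D1:**
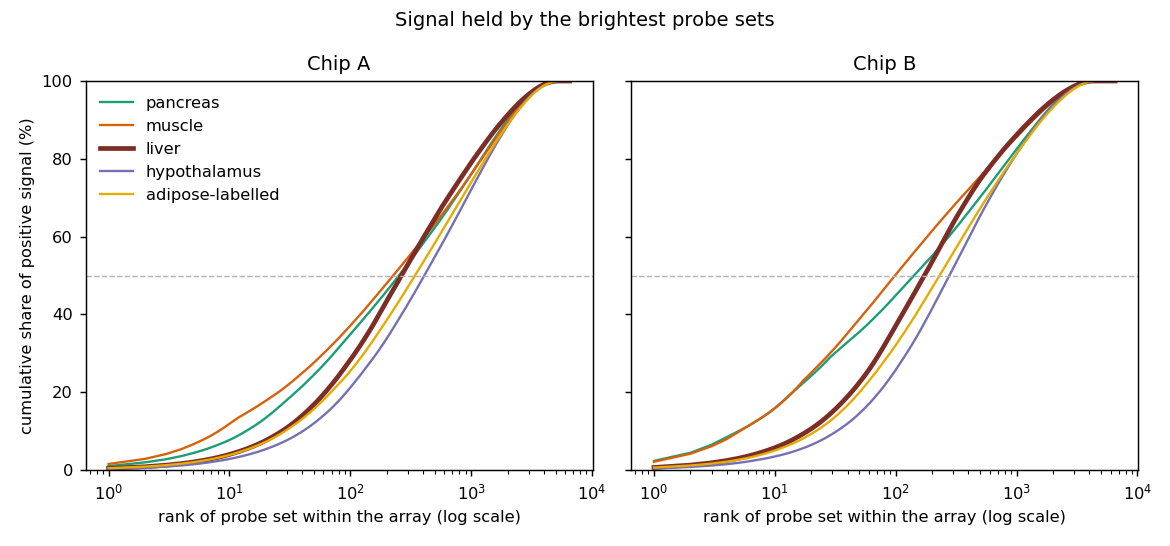
Cumulative share of the positive signal of each array (percent) against the rank of the probe set within that array (log scale), for chip A and chip B, with 1 line per tissue and a dashed line at 50%. The liver line starts low, with 4.03% (chip A) and 5.76% (chip B) in the top 10, and crosses those of pancreas and muscle further down on chip A and that of pancreas on chip B.

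The brightest liver probe sets mixed messages of the hepatocyte with messages that every tissue holds. Of the top 100 on chip A, 44 were above the noise bound in all 5 tissues and 28 in no other tissue. On chip B these counts were 34 and 25. Besides Rpl41, the top 25 of chip A held Plg, plasminogen, at rank 2, Pzp, a broad protease inhibitor, at rank 3, Bhmt, which remakes methionine from betaine, at rank 6 and Cyp2d26, a cytochrome P450, at rank 7. The retinol carrier Rbp4, the glutathione transferase Gstm1 and the fatty acid desaturase Scd1 followed at ranks 8 to 10, at 18609, 18473 and 18401. The top 25 of chip B held Hsd11b1, which regenerates active glucocorticoid, at rank 2, Gsta3, another glutathione transferase, at rank 10, the lipoprotein Apoa2 at rank 12 and the urea cycle enzyme Ass1 at rank 13. Translation factor Eef1a1, the ferritin chain Ftl1 and Prdx1, a peroxide reductase, stood among them at 30539, 26052 and 27025. On chip B 59 of the top 100 probe sets were of a design that is shared by a gene family or has relaxed rules, and 55 had a single named gene.

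A probe set was called highest in liver where its liver value was above the liver bound and at least 4 times the largest, over the other 4 arrays, of the value or that array's bound. This held for 77 probe sets of chip A (1.18% of those tested) and 51 of chip B (0.781%), together 128 (0.98%), of which 95 read 87 named genes. The same rule gave 91 probe sets for pancreas, 98 for muscle, 49 for hypothalamus and 32 for the adipose-labelled arrays. For 73 of the 128, no other tissue was above its own bound. The median fold was 7.34 and 90 of the 128 folds were lower limits set by a bound. The rule could give at most 18.3-fold on chip A and 15.5-fold on chip B, so the fold orders these genes mainly by their liver signal. Of the 128, 115 were kept under all 3 other scalings tried. A further 744 probe sets were above the bound and had their highest value in liver without reaching 4-fold.

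Plg read 19835 in liver, 448 in pancreas, 61 in muscle, -145 in hypothalamus and -122 in the adipose-labelled sample. Liver was at least 17.0-fold above the rest, and no other tissue reached its own bound. Pzp read 19566 in liver and 9, 274, 75 and 113 in pancreas, muscle, hypothalamus and the adipose-labelled sample, at least 16.8-fold. Bhmt read 19009 in liver and -84 to 573 elsewhere (at least 16.3-fold), and Cyp2d26 18705, with at most 127 in any other tissue (at least 16.0-fold). Fabp1, the fatty acid carrier of the hepatocyte cytosol, read 17317 in liver and at most 471 elsewhere, at least 14.9-fold, by a probe set of family design. Its other probe set read 224 in liver, under the bound. Hsd11b1 had the largest signal of a named gene on chip B, with 35868 in liver, -92 in pancreas, 2981 in muscle, 343 in hypothalamus and 2947 in the adipose-labelled sample. Its fold of 12.03 was set by a measured value, that of muscle, so for Hsd11b1 the distance to the next tissue was itself measured.

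**Figure D2:**
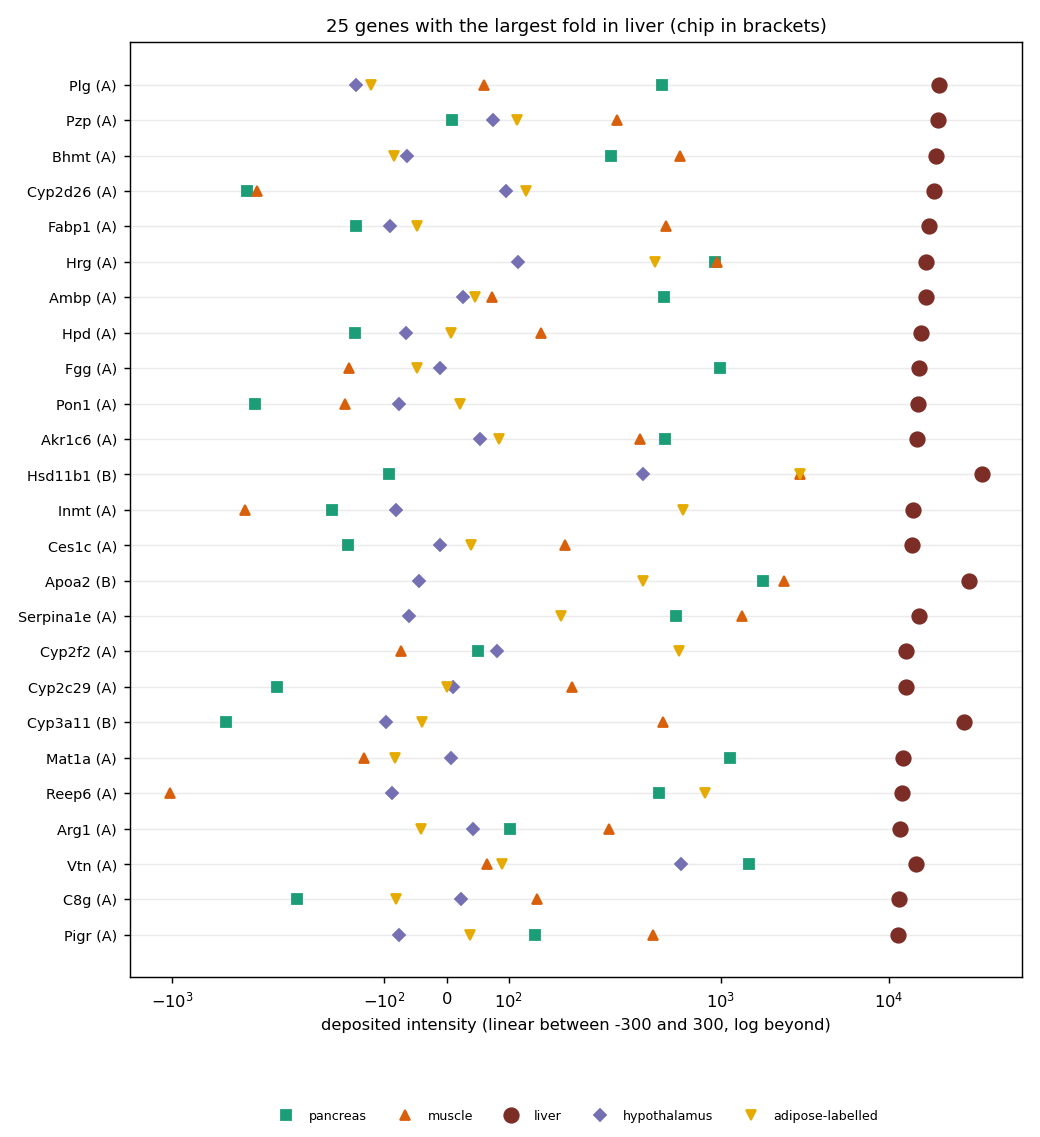
Deposited intensity in the 5 tissues (1 point per array, linear near 0 and log beyond) for the 25 named genes with the largest fold in liver, with the chip in brackets. The liver points lie from 11376 to 35868, and those of the other tissues at 2981 or below.

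The 4 genes taken as hepatocyte markers were all called, but they were chosen with earlier results of these data known. Other hepatocyte genes, such as Alb and Apoa1 below, were not called. Apoh, a lipid-binding plasma glycoprotein, read 23073 in liver and -317 to 54 elsewhere on chip B, while its other probe set read 703 and was under the bound. Cyp3a11, a drug-oxidising P450, read 28020 and 24855 by its probe sets, both of family design. Hpd, of tyrosine breakdown, read 15533 in liver and at most 152 elsewhere. Serpina1a, which encodes the main elastase inhibitor of plasma, read 28738 and 18581, and its nearest neighbour by value was pancreas at 3943.

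Several called genes are neighbours in genome order among the measured genes, with genes that were not measured left out of the order. Of the 87 called genes, 9 (10.3%) had another called gene as the next measured gene on either side, where 2.77% of all 6127 measured genes with a position had a called neighbour. They were Serpina6, Serpina1a and Serpina1e on chromosome 12, Ahsg and Hrg on chromosome 16, Mup3 and Mup5 on chromosome 4, and Cyp2b9 and Cyp2b13 on chromosome 7. Serpina1a and Serpina1e, Mup3 and Mup5, and Cyp2b9 and Cyp2b13 are near copies of each other, so how their signal divides between the copies is uncertain.

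Promoters of called genes were read from RefSeq (GRCm38.p6, 250 bases before to 50 bases after the start of the gene, in the direction of the gene), for 71 of the 87 genes, with 84 promoters. Letters bound by factors known from hepatocytes were searched on both strands: CAAAGTC for HNF4, TTGCNNAA for C/EBP, the HNF1 motif, and TATAAA for the TATA box. CAAAGTC stood in 13.1% of the promoters of called genes, against 4.12% of the 6262 promoters of measured genes and 4.44% of all 32851 in the table. In the same order TTGCNNAA stood in 26.2% against 9.81% and 10.8%, TATAAA in 22.6% against 10.3% and 13.6%, and the HNF1 motif in 1.19%, which is 1 promoter, against 0.303% and 0.399%. TATAAA on the strand of the gene with its first base 20 to 36 bases before the start was found in 7 of the 84 (8.33%), against 2.67% of those of measured genes and 1.86% of all. In the 32 promoters of genes called lowest in liver, CAAAGTC stood in 3.13% and TTGCNNAA in 15.6%. A match is a description of letters and not a site or a cause.

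The promoters printed here are those of 2 pairs of called genes that were neighbours among the measured genes, and that of Fabp1. The pairs are shown because the first has different promoters and the last is a pair of near copies. Fabp1 is shown because it carries TATAAA shortly before the start. Capitals mark the matched letters, which for a match on the other strand are the reverse complement (GACTTTG for CAAAGTC). Ahsg (chr16:22891765-22892064, plus strand) holds CAAAGTC in 2 places and TTGCNNAA once. Hrg (chr16:22950822-22951121, plus strand) holds TTGCNNAA once, and a TATAAA at the start itself. Cyp2b9 (chr7:26173159-26173458, plus strand) and Cyp2b13 (chr7:26061245-26061544, plus strand) hold TTGCNNAA and CAAAGTC at the same place, where they overlap, and 298 of their 300 bases are identical. Fabp1 (chr6:71199629-71199928, plus strand) holds TTGCNNAA once and TATAAA once.
Ahsg: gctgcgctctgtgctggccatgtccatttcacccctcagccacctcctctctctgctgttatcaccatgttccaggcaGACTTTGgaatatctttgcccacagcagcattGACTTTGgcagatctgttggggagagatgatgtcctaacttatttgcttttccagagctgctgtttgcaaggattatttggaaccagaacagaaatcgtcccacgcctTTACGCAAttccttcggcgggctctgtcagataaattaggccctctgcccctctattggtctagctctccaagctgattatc
Hrg: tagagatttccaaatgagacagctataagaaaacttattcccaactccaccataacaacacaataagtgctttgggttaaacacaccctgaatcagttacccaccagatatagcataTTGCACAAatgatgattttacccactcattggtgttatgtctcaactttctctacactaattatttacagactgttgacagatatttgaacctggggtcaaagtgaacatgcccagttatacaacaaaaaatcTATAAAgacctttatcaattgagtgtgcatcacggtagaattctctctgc
Cyp2b9: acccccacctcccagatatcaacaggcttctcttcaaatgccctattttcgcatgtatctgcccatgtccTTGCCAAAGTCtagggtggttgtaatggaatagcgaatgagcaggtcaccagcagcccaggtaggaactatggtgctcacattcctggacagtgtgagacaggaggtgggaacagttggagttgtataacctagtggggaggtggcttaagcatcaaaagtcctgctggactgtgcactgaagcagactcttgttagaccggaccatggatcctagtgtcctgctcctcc
Cyp2b13: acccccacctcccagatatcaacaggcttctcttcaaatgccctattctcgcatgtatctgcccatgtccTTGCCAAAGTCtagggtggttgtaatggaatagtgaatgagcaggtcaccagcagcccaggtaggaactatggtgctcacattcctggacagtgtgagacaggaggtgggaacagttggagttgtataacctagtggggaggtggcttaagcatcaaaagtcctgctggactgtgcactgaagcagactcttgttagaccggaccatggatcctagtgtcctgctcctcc
Fabp1: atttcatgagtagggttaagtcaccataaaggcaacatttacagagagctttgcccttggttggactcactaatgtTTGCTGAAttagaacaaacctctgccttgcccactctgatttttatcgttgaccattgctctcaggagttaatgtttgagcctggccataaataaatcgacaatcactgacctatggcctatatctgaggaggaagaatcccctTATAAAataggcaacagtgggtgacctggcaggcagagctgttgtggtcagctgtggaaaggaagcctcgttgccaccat

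By gene, each read by 1 probe set, 84 of 6137 genes (1.37%) were called highest in liver. Of the same 6137 genes, 535 had their highest value in liver above the bound, and 2188 were above the liver bound. The median gene lay in liver at -0.18 log2 units relative to the mean of the other 4 tissues, with low values raised to a floor, and the size of such medians depends on that floor. The lists below were drawn from textbook roles of liver, so their direction is a description. The 13 lists of hepatocyte function held 228 measured genes, of which 62 were called, 159 had their highest value in liver above the bound, and 194 were above the liver bound. Their probe sets, 2.71% of those on chip A and 1.62% of those on chip B, held 19.3% and 16.9% of the positive signal of liver. In the other tissues they held 1.72% to 4.31% on chip A and 1.12% to 3.09% on chip B, with the highest share in the adipose-labelled arrays.

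**Figure D3:**
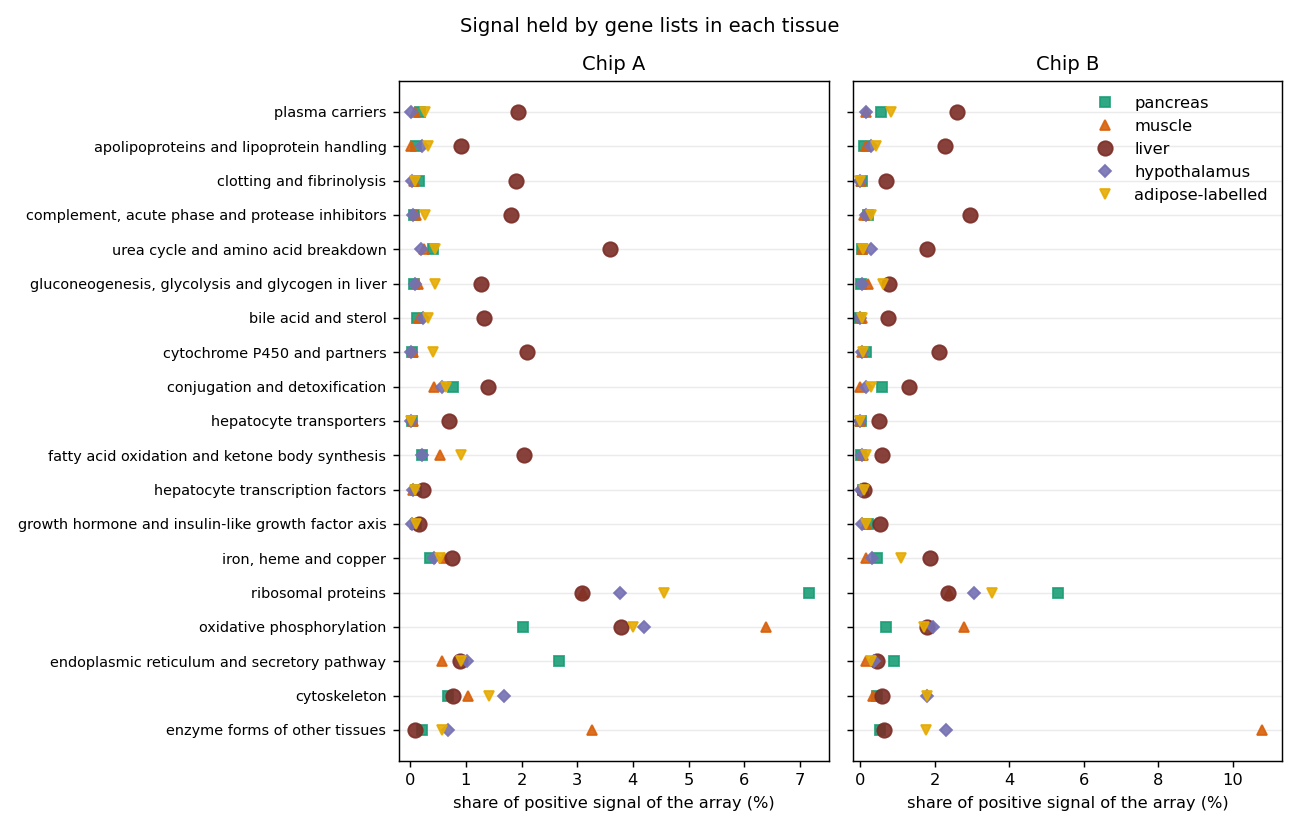
Share of the positive signal of each array (percent) held by the probe sets of gene lists, for chip A and chip B, with 1 point per tissue. On chip A the liver points of the lists of plasma proteins, metabolism and detoxification lie to the right of those of the other tissues, while ribosomal proteins, the cytoskeleton and enzyme forms of other tissues do not.

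Of 15 plasma carriers 7 were called and 14 had their highest value in liver (median 4.33 log2 units). Ambp, the precursor of a heme-binding carrier and of a protease inhibitor, read 16752 in liver on chip A and 29759 on chip B and was called on both. Serpina6, the carrier of corticosteroids, read 21813 in liver and at most 309 elsewhere, at least 8.38-fold. Ahsg, fetuin, read 17158 in liver, 2909 in pancreas, 669 in muscle, 111 in hypothalamus and 168 in the adipose-labelled sample, 5.90-fold above pancreas. Of 16 genes of apolipoproteins and lipoprotein handling 5 were called (median 2.56). Apoa2, of high density lipoprotein, read 30117 and 25995 by its probe sets, and Apoc1, which inhibits lipoprotein lipase, read 25399, at least 9.76-fold above the rest. Pon1, an esterase of high density lipoprotein, read 14958 in liver and at most 22 elsewhere (at least 12.8-fold). Apoa1, the main protein of the same particle and here named after its values were seen, read -80 and 34 in liver by its probe sets, both under the bound, and under the bound in the other tissues too.

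Of 14 genes of clotting and its brakes 6 were called (median 4.94). F2, prothrombin, read 27553 in liver, 2978 in pancreas and at most 474 elsewhere, 9.25-fold above pancreas. Hrg, a histidine-rich plasma protein that binds plasminogen and heparin, read 16773 in liver and at most 946 elsewhere, and Fgg, a fibrinogen chain, read 15114 and at most 984 elsewhere. All 3 had pancreas or muscle as the next tissue. The other probe set of Hrg read 91 in liver, under the bound, and 198 in pancreas, so it did not show Hrg as highest in liver. Of 25 genes of complement, the acute phase and protease inhibitors 10 were called and 21 peaked in liver (median 4.19). C8g, of the complement membrane attack complex, read 11554 in liver and at most 145 elsewhere, at least 9.91-fold. Serpina1e read 15095 in liver and 1331 in muscle, 11.3-fold. C4bp, an inhibitor of complement, missed the call narrowly with 4660 in liver and at most 208 elsewhere.

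Amino acid breakdown was the list with the largest count, in which 13 of 22 members passed the rule and 21 had their top value in liver (median 4.49). Ass1, which joins citrulline and aspartate in the urea cycle, read 30047 in liver, 3585 in hypothalamus and -1001 to -567 in the other 3 tissues, 8.38-fold above hypothalamus. Arg1, the arginase that releases urea, read 11606 in liver and at most 261 elsewhere, at least 9.96-fold. Mat1a, which makes the methyl donor S-adenosylmethionine, read 12195 in liver and at most 1130 elsewhere, and Ahcy, which clears its product, was called on both chips at 7174 and 13205. The remaining Ahcy probe set read 8707 in liver and 3176 in pancreas and was not called. Agxt, which detoxifies glyoxylate, read 4436 and 4248, with no other tissue above 138, and did not reach 4-fold because the pancreas bound was 1165.

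Of 9 genes of glucose and alcohol metabolism 3 were called (median 3.02). Fbp1, of gluconeogenesis, read 8689 in liver and at most 11 elsewhere (at least 7.46-fold). Adh1, alcohol dehydrogenase, read 18146 in liver, 354 in pancreas, 2016 in muscle, 148 in hypothalamus and 4315 in the adipose-labelled sample, 4.21-fold above the last. Aldh1a1, an aldehyde dehydrogenase, read 12761 against 3022 in the adipose-labelled sample (4.22-fold). Both dehydrogenases had the adipose-labelled sample as the next tissue. Of 22 genes of fatty acid oxidation and ketone bodies 3 were called and 17 peaked in liver (median 2.28). The list also holds genes outside fatty acid oxidation itself, Uox and Dio1 among them. Uox, urate oxidase of the peroxisome, read 20776 in liver and at most 1189 elsewhere, at least 7.98-fold. Cpt1a, which admits fatty acids to the mitochondrion, read 4797 in liver and at most 567 elsewhere, at least 4.12-fold.

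Of 16 genes of bile acid and sterol metabolism 3 were called (median 2.34). Besides Hsd11b1 these were Akr1c6, a hydroxysteroid dehydrogenase, at 14791 in liver and at most 464 elsewhere, and Ces1c, a secreted carboxylesterase, at 13702 and at most 191. Cyp7a1, the rate-limiting enzyme of bile acid synthesis and named after its values were seen, read 562 in liver, under the bound of chip B. Of 20 cytochrome P450 genes 8 were called and 16 peaked in liver (median 4.69). Cyp1a2, which oxidises caffeine and aromatic amines, read 23904 in liver, 1899 in pancreas, 1566 in muscle, 503 in hypothalamus and 436 in the adipose-labelled sample, at least 9.18-fold, while its other probe set read 9447 and was not called. Cyp2f2 and Cyp2c29 read 12746 and 12744 in liver and at most 560 and 201 elsewhere. Of 20 conjugating and protective genes 1 was called highest, Ugt2b5, a glucuronosyltransferase, at 12972 in liver and at most 484 elsewhere (at least 4.98-fold). Gstm1 was above the bound in every tissue and read 18473 in liver, 6846 in pancreas, 8129 in muscle, 4804 in hypothalamus and 10613 in the adipose-labelled sample. Of 10 transporters 3 were called (median 4.30). Slc10a1, the bile acid importer, read 19136 in liver and at most 244 elsewhere, and Slc27a2, which takes up and activates fatty acids, read 9922 and 7210 by its probe sets, both called.

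Genes known to differ between the sexes in mouse liver were read here in females alone, and were picked after their values were seen. Cyp2b9 and Cyp2b13, both female-predominant, read 8285 and 5704 in liver. Cyp2b9 reached at most -9 elsewhere and Cyp2b13 at most 920, and both were called. Sult2a2, a steroid sulfotransferase of a female-predominant group, read 5282 in liver and at most 253 elsewhere and was called (at least 4.53-fold). Hsd3b5, a male-predominant steroid enzyme, read 69 in liver, under the bound, and Cyp2d9, a male-predominant P450, read 926 in liver and at most 93 elsewhere. Mup3, a urinary protein gene that is higher in males, read 10637 in liver and at most 616 elsewhere. There was no male sample, so none of these levels was set against the other sex.

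Both ends of the lobule were represented. Of 16 pericentral genes 6 were called (median 2.71), among them Cyp1a2, Cyp3a11 and Cyp2c29. Of 11 periportal genes 5 were called (median 5.30), among them Ass1, Cyp2f2 and Arg1. Of the genes that were not called, Glul, glutamine synthetase of the innermost pericentral cells and named after its values were seen, read 1397 in liver and at most 578 elsewhere. Some of these genes are also in the metabolic lists, so the counts overlap. Of 21 genes of iron, heme and copper 3 were called (median 1.18, or 0.06 with the floor at the 75th percentile): Hamp, the iron hormone hepcidin, at 20937 in liver and at most 1607 elsewhere, Cp, the copper carrier ceruloplasmin, at 15112 and at most 2126, and Hpx, the heme scavenger hemopexin, at 8983 and at most 653. The ferritin chain Ftl1 read 26052 in liver, 27460 in pancreas, 3508 in muscle, 8706 in hypothalamus and 20943 in the adipose-labelled sample, and was not highest in liver.

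Of 19 transcription factors of hepatocytes none was called and 8 were above the liver bound. Their median was 0.70, or 0.00 with the floor at the 75th percentile, and the following were named after their values were seen. Nr1i3, a xenobiotic receptor, read 1847 in liver and at most 128 elsewhere. Nr1h4, the bile acid receptor, read 1455 in liver and at most -32 elsewhere. Hnf4a read 214 in liver and Ppara -4, both under the bound. Of 22 genes of the growth hormone and insulin-like growth factor axis none was called highest (median 0.08). Igf1, which liver releases into blood, read 8627 in liver, 2159 in pancreas and at most 464 elsewhere on chip B. The pancreas value was under the pancreas bound of 2603, which set the fold, and 4-fold was not reached. Igfbp2, one of its binding proteins, read 3346 in liver and at most 155 elsewhere.

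Markers of the other cells of liver were low or shared. Of 20 genes of Kupffer cells and macrophages 11 were above the liver bound, none was called and the median was -0.03, and it was 0.14 with 75th percentile scaling. Their positive signals in liver summed to 11002 (chip A) and 9253 (chip B), against 5579 to 20134 and 5789 to 27334 in the other tissues. The 3 with their highest value in liver were Clec4f, a lectin of Kupffer cells (1340, at most 192 elsewhere), Cd5l, a secreted macrophage protein (1103, at most 467) and Mpeg1, a pore protein (1688, at most 766). Of 11 endothelial genes 2 were above the liver bound, Eng and Kdr, and Pecam1 read 0. Of 22 genes of stellate cells, fibroblasts and matrix 8 were above the bound and the median was -1.75, with Fn1, the plasma and matrix protein fibronectin, highest at 10950 and Col1a2 at -220. Of 10 bile duct genes 2 were above the bound, Tff3 and Anxa4, while Krt19 read 35, Krt7 195 and Epcam -27. Of 14 blood genes 4 were above the bound, Hba-a1 at 17334 among them, which read 43690 in pancreas and 6181 to 23878 in the remaining tissues. These genes were named after their values were seen, and their part in the liver results was not tested.

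Markers of pancreas, muscle and neurons were mostly under the liver noise bound and adipocyte genes were divided. None of 16 pancreatic acinar genes was above the liver bound, with summed positive signals of 256 and 1617 on the chips against 311488 and 928571 in pancreas. Of 20 contractile genes of muscle 3 were above it (Ckm, Tpm1 and Tnnc2), with sums of 1005 and 3942 against 594432 and 901622 in muscle. Of 25 neuron genes 1 was above it, Stmn3 at 692, with sums of 1353 and 1605 against 67923 and 80004 in hypothalamus. Of 15 adipocyte genes 8 were above it. These were Car3, a carbonic anhydrase, and Scd1, Dgat2, Fasn, Acly, Cd36, Lipe and Lpl, which make, take up or break down lipid, while Adipoq at 120, Fabp4 at 68, Cidec at 166, Retn at 165, Lep at 15 and Pparg at -6 were under the liver bound. Apart from Scd1, the genes of these lists were named after their values were seen, and their part in the liver results was not tested. The adipocyte list summed to 31737 and 26861 in liver and to 135441 and 107903 in the adipose-labelled sample.

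The adipose-labelled sample was nevertheless the tissue that shared most of the brightest probe sets of liver. Of the top 100 of liver, 35 were also in its top 100 on chip A and 43 on chip B. The counts were 22 and 26 for hypothalamus, 18 and 25 for pancreas and 18 and 21 for muscle. The adipose-labelled sample also shared 39, 35 and 36 of its top 100 with pancreas, muscle and hypothalamus on chip A and 35, 31 and 40 on chip B, so on chip A its overlap with liver was no larger than with the others. Scd1 read 18401 in liver, 1228 in pancreas, 6006 in muscle, 2499 in hypothalamus and 13861 in the adipose-labelled sample. Cyp2e1, an ethanol-oxidising P450, read 16388 in liver, 17100 in the adipose-labelled sample and at most 1108 elsewhere. Hp, the hemoglobin carrier haptoglobin, read 27927 and 22496 in the same samples and at most 1594 elsewhere. Both genes had a high value in these 2 samples alone. Gsta3 read 31028 in liver, 9659 in the adipose-labelled sample and at most 601 elsewhere, and Rbp4 read 18609, 7425 and at most 1913. In the adipose-labelled arrays 37 of the 128 probe sets called for liver were above the noise bound, against 23 in hypothalamus, 18 in pancreas and 16 in muscle. Of all probe sets, 32.9% (chip A) and 16.8% (chip B) were above the bound in the adipose-labelled arrays and 41.1% and 20.9% in hypothalamus. The shares were 15.5% and 8.36% in pancreas and 16.6% and 11.2% in muscle, so these counts also depend on the bound of each array.

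**Figure D4:**
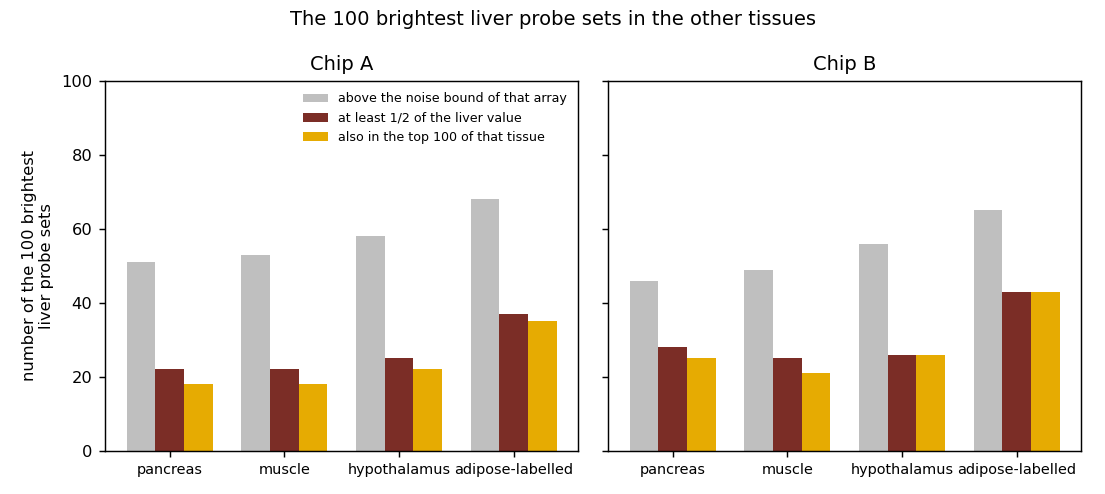
Number of the 100 brightest liver probe sets (vertical axis, count) that in each other tissue were above that array's noise bound, were at least 1/2 of the liver value, or were also in that tissue's top 100, for chip A and chip B. The adipose-labelled bars are the tallest of each kind, with 35 shared in the top 100 on chip A and 43 on chip B.

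Some plasma protein messages were bright in pancreas too. Alb, albumin, the main protein of plasma, read 26215 in pancreas, 8194 in muscle, 18170 in liver, 151 in hypothalamus and 182 in the adipose-labelled sample. The highest value of Alb was thus not in liver, by a probe set of family design. Clu, clusterin, a carrier of lipids and unfolded proteins, read 35205 in pancreas, 1448 in muscle, 15632 in liver, 12205 in hypothalamus and 2235 in the adipose-labelled sample. Of the 128 probe sets called for liver, 51 had pancreas as the tissue with the next highest value, 39 muscle, 30 the adipose-labelled sample and 8 hypothalamus. The pancreas and muscle arrays also had the widest noise.

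A probe set was called lowest in liver where the other 4 tissues were all above their bounds and the lowest of them was at least 2 times the larger of the liver value and the liver bound. Of 541 such probe sets on chip A 27 were called (4.99%), and of 256 on chip B 10 (3.91%), together 37 of 797 (4.64%), reading 28 named genes. By gene this was 26 of 523 (4.97%). Pancreas had 30 of 1225, muscle 33 of 1008, hypothalamus 48 of 791 and the adipose-labelled sample 6 of 786. These calls rested on the scaling: of the 37, 17 were kept with 75th percentile scaling, 11 with quantile normalization, 6 with scaling by the hybridisation spikes and 1 with all 3. Highest calls were 77.6% of all calls for liver as deposited, and 91.7%, 91.8% and 94.97% under these scalings. The rules differ in fold and in eligible probe sets (0.98% of 13057 called highest, 4.64% of 797 called lowest). The share therefore shows the effect of scaling and does not compare high with low messages. The 1 probe set kept throughout, on chip A and without a gene name, read 28751 in pancreas, 30447 in muscle, 473 in liver, 9726 in hypothalamus and 16364 in the adipose-labelled sample, 20.6-fold lower in liver than in hypothalamus. Another probe set of the same sequence record read 3632 in liver and 3551 in the adipose-labelled sample, so it was not lowest in liver.

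The named genes with the largest fold below the other tissues were Fhl1, Cd63 and Cryab. Fhl1, a muscle protein with LIM domains, read 1477 in pancreas, 15455 in muscle, 244 in liver, 3053 in hypothalamus and 2827 in the adipose-labelled sample, and was at least 4.99-fold lower in liver than in pancreas. Its other probe sets were under the bound in liver and in pancreas. Cd63, a tetraspanin of late endosomes, read 5214, 1304, 202, 1433 and 2994 in the same order (at least 4.41-fold). Cryab, a small heat shock protein, read 2156, 14764, 320, 1398 and 2260 on chip A (4.37-fold) and 2795, 12537, 572, 2244 and 3134 on chip B (at least 2.83-fold), and was called on both. By the called probe sets of these 3 genes, liver lay below every other tissue on the deposited scale. Their calls differed under rescaling: Fhl1 and Cryab on chip A kept theirs under 75th percentile scaling and quantile normalization, Cd63 under 75th percentile scaling and scaling by spikes, and Cryab on chip B under none.

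Igf2, the fetal insulin-like growth factor, read 1224 in pancreas, 2137 in muscle, 85 in liver, 928 in hypothalamus and 946 in the adipose-labelled sample (at least 3.14-fold). Vegfb, an endothelial growth factor, read 158 in liver and 1070 to 4167 elsewhere (at least 3.61-fold). Both liver values were under the bound, so only a limit is given. Rhoq, a small GTPase of membrane traffic, read 364 in liver and 1144 to 6148 elsewhere (3.14-fold), and App, the amyloid precursor protein, read 1578 in liver and 4667 to 12439 elsewhere (2.96-fold). Dnm1, the dynamin of nerve endings, read 98 in liver and 810 to 5072 elsewhere, at least 2.74-fold. Gstm5, a glutathione transferase, read 387 in liver and 909 to 4058 elsewhere (2.35-fold), against the direction of most members of its list. Aldoa, the aldolase of muscle and most tissues, read 2995, 58298, 1278, 7528 and 10505 on chip A, 2.34-fold lower in liver than in pancreas. On chip B it read 11564, 151990, 5215, 13821 and 23438 (2.22-fold), and a further probe set with 5095 in liver and 8881 in pancreas was not called. Under scaling by the spikes pancreas lay below liver for 8 of the 37 probe sets, those of Aldoa, on both chips, App, Add1, Mbd3 and Cdk2ap1 and 2 without a gene name.

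**Figure D5:**
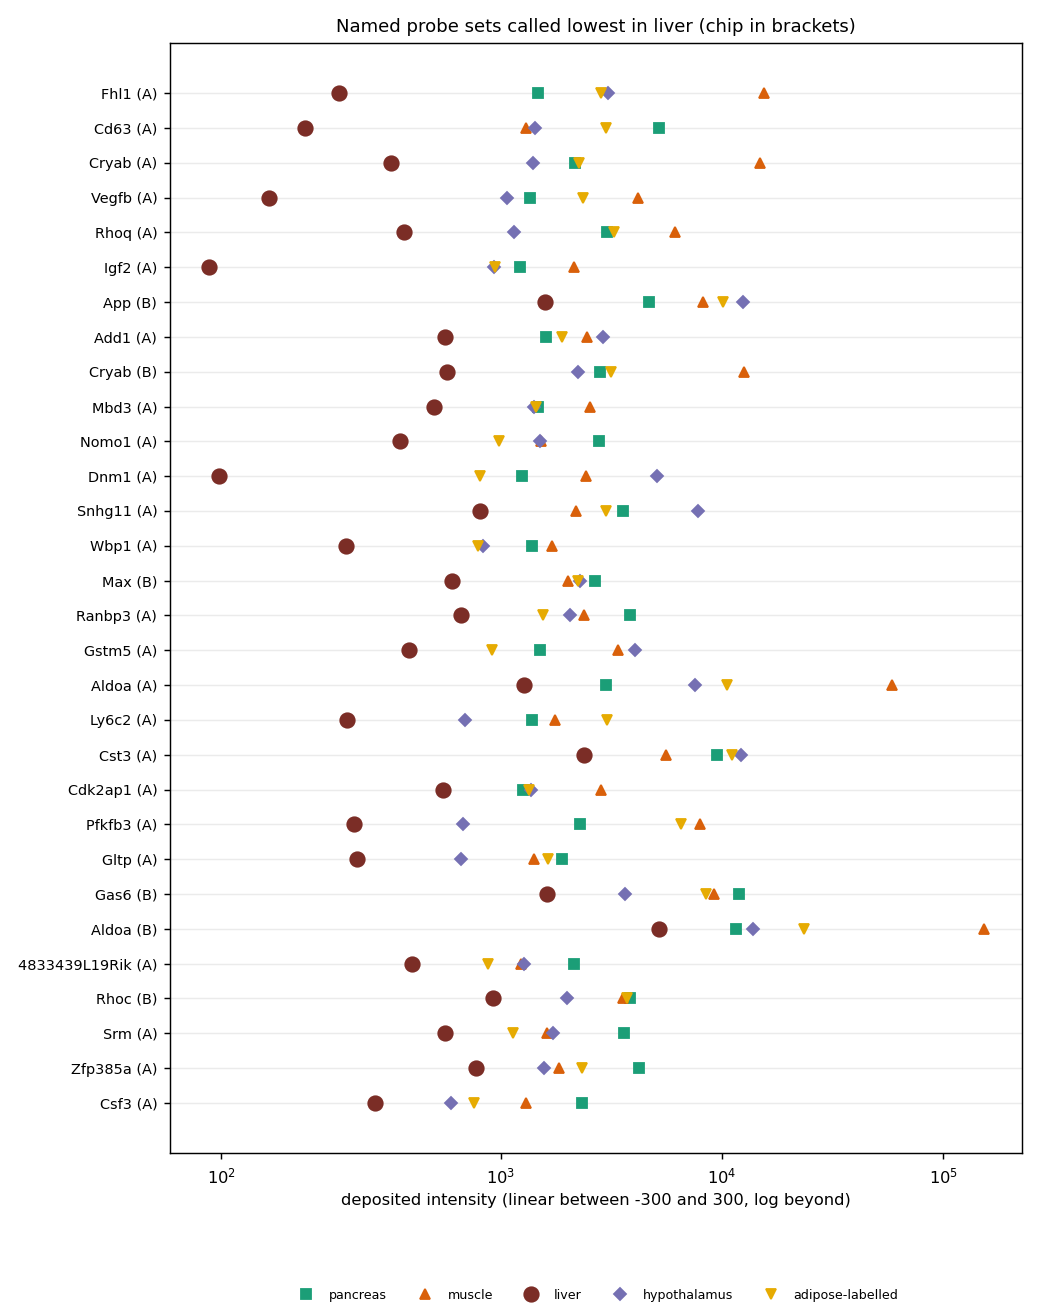
Deposited intensity in the 5 tissues (1 point per array, linear near 0 and log beyond) for the named probe sets called lowest in liver, with the chip in brackets. The liver points lie to the left of all others, from 85 for Igf2 to 5215 for Aldoa, on the deposited scale.

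Forms of enzymes that serve other tissues, Aldoa among them, had a liver median below that of all genes, though most were not lowest in liver. Of 22 such genes the median was -2.16 log2 units, 7 were lowest in liver and 7 were above the liver bound. Of all 6137 genes, 1194 were lowest in liver and 2188 were above the liver bound. The share of the list above the bound was thus near that of all genes. Only 3 of the 22 had every other tissue above its bound and could be called lowest, and 1, Aldoa, was. Among all genes 523 could be called lowest and 26 were. Glud1, glutamate dehydrogenase, which is also in the list of amino acid breakdown, was the 1 member highest in liver. Pkm, the pyruvate kinase of muscle and brain, read 1079 in liver and 54753 in muscle, and Ldhb, the heart form of lactate dehydrogenase, read 42 in liver and 10305 in hypothalamus. Neither was called, because pancreas was under its bound for both, and both were named after their values were seen. General cell machinery had medians nearer that of all genes. The medians were -0.45 for 46 ribosomal protein genes, -0.46 for 39 cytoskeletal genes, -0.01 for 59 genes of oxidative phosphorylation, 0.23 for 41 proteasome genes and -0.19 for 37 genes of the endoplasmic reticulum, with none called in either direction. Those of oxidative phosphorylation and the endoplasmic reticulum turned to 0.36 and 0.11 with 75th percentile scaling.

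At the edge of the highest rule, Hpn, a membrane protease, was 4.03-fold and Vkorc1, the target of warfarin, 4.04-fold, while just outside it stood Cyp3a16 at 3.95-fold or more and Sec14l2, a lipid carrier, at 3.92-fold. At the edge of the lowest rule, Csf3 was at least 2.02-fold and Zfp385a 2.03-fold lower, while Itga3 at 1.95-fold and Ctdsp2 at 1.94-fold were outside. Probe sets present on both chips gave 1 check of repeatability in liver. For the 18 above the bound on both, of which 15 were control probe sets left out elsewhere, the value on chip B was 1.67 times that on chip A in the median, from 1.17 to 2.10, with an SD of 0.20 on the log2 scale. The 3 others, a P-selectin probe set and those of the B2 repeat, gave 1.72 to 2.10. Of 398 genes with a probe set on each chip, 5 were called highest on chip A and 4 on chip B, with 3 on both: Ahcy, Ambp and Cfb, a complement protease.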

How the data were processed

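Total RNA of each tissue was extracted with Trizol, and biotin-labelled cRNA from 10 µg of it was hybridised to the arrays, per the labels' protocols. The deposited values are linear intensities in whole numbers, some below 0, and the 2% trimmed mean of each array lay near a common level, so the authors had scaled them; the software is not named in the labels, and is therefore not given in the sources used. Intensities were used as deposited, with 61 controls left out per chip. Genes were named from the platform annotation (5541 probe sets with 1 gene, 197 with several and 785 with none on chip A, and 2001, 27 and 4506 on chip B), with symbols updated by gene identifier.

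Low values were raised to a floor (the median of the array medians, 174 on chip A and 122 on chip B) for log2 medians only. Each gene was read by its probe set of highest mean rank. Named were genes of the top 25 of each chip, the 15 largest folds of each rule, up to 3 members of each list called highest and 2 called lowest, the 5 genes nearest each threshold on either side, and Apoh, Cyp3a11, Hpd, Serpina1a, Actb, Gapdh, Ppia and Alb. The members and lists were chosen with earlier results of these data known. Python 3.11.15 with pandas 2.3.3 and numpy 2.4.6 was used. The calling rules were also run on simulated data with planted differences larger than the thresholds, which checks the code and not the calls. Alternatives were other scalings, bounds, folds, probe designs and leaving out a tissue.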

Additional observations from a re-analysis of the deposited data

How the results depend on the processing

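The 128 highest calls became 195 with the 5th percentile as the bound, 268 at 2-fold and 55 at 8-fold, and stayed within 1.5 times of 128 under the other alternatives. The 37 lowest calls became 17 with 75th percentile scaling, 15 with quantile normalization, 8 with scaling by spikes, 15 with the 0.5th percentile as the bound, 131 with the 5th, 4 with 1 bound for all arrays (the largest), 4 at 4-fold and 1 at 8-fold. Without pancreas they were 115, without muscle 58, without hypothalamus 107 and without the adipose-labelled sample 67, and the cause was not tested beyond there being fewer tissues to clear. List medians that changed sign were those of Kupffer cells (0.14 after 75th percentile scaling, 0.16 after quantile normalization, 0.010 after scaling by spikes), oxidative phosphorylation (0.36 with 75th percentile scaling and 0.12 with spikes), the endoplasmic reticulum (0.11 with 75th percentile scaling) and reference genes (-0.052 with quantile normalization). With spikes the lowest other tissue over liver was 0.770 for Add1, 0.627 and 0.557 for Aldoa, 0.785 for Mbd3, 0.743 for App and 0.617 for Cdk2ap1, and 0.616 and 0.943 for 2 unnamed probe sets. The floor set the size of the list medians: with the floor at the 75th percentile 15 of 32 moved beyond the limit, such as 4.33 to 3.34 for plasma carriers, 4.69 to 3.21 for cytochrome P450, 1.18 to 0.06 for iron and -2.16 to -1.30 for enzyme forms of other tissues. Without family or relaxed designs the apolipoprotein median was 1.09 with 3 called. List counts of highest calls moved in 10 cases, 9 of them under other scalings. Shares of signal moved by less than the limit set. A share cannot change when an array is multiplied by a single factor, as in 75th percentile scaling and scaling by spikes. No paired analysis was possible because each tissue has 1 array per chip and the labels give no replicate numbers. The spikes read 1.8 log2 units above the mean of the 5 arrays in pancreas on chip A, so scaling by them moves pancreas most.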

Other observations

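Probe sets outside the gene lists gave further values for liver. The probe set for the B1 repeat, a short interspersed repeat of the mouse genome, read -2 in liver on chip A and -110 on chip B. It read 14568 and 16713 in pancreas, 342 and 597 in muscle, 10046 and 12621 in hypothalamus, and 4400 and 7290 in the adipose-labelled sample. A probe set for the B2 repeat, another family of such repeats, read 19510 and 33477 in liver. It was higher in pancreas (27520 and 55330) and muscle (35354 and 47059). It was lower in hypothalamus (13221 and 17287) and the adipose-labelled sample (16876 and 24723). A further B2 probe set read 3280 and 6873 in liver, with 1768 to 3152 and 1895 to 5670 in the other tissues. These B1 and B2 probe sets are present on both chips, and the order of the tissues for B1 was the same on each chip.

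Probe sets for beta-actin, Actb, differed in the order of the tissues. The control probe set at the 3' end read 2620 in liver, 3811 in hypothalamus, 17313 in the adipose-labelled sample, 18855 in pancreas and 32570 in muscle on chip A, so liver was lowest. The brightest of the 3 other Actb probe sets, all of family design, read 6790 in liver, 7456 in hypothalamus, 4902 in pancreas, 1297 in muscle and 1122 in the adipose-labelled sample. In liver the 3' control read 2.84 times the 5' control on chip A and 2.61 times on chip B, against 1.18 and 1.35 for Gapdh. For Actb this ratio was highest in pancreas, at 4.74 and 2.69. It was 2.17 and 1.96 in hypothalamus, 1.56 and 1.51 in the adipose-labelled sample and 1.41 and 1.34 in muscle.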
